A study of Mus musculus with 6 samples.

Results

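The interferon regulatory factors (IRFs) are transcription factors that share an N-terminal DNA-binding domain with conserved tryptophans and bind GAAA repeats in the promoters of interferon genes and interferon-stimulated genes. The 9 genes described here are 8 IRF genes (Irf1, Irf2, Irf3, Irf4, Irf5, Irf7, Irf8 and Irf9) and Irf2bp2, a corepressor gene named for the binding of its protein to IRF2. They were chosen by gene symbol, and all 9 were found among the 49492 gene rows of the count table. The set was taken as a named family, not by measured values.

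In macrophages, IRF3, IRF5 and IRF7 are activated by phosphorylation downstream of nucleic acid sensors and Toll-like receptors, and IRF3 and IRF7 then drive type I interferon genes. IRF9 is part of the complex ISGF3, which carries the interferon signal to target promoters. IRF1 activates and IRF2 mostly represses at the same elements, while IRF8 and IRF4 bind with ETS factors such as PU.1 in the myeloid programme. p300, the acetyltransferase encoded by Ep300, is a known coactivator at interferon promoters.

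RNA was sequenced as mRNA libraries from RAW264.7, a macrophage-like line from a mouse tumour induced by a leukaemia virus, after transient transfection for 48 h at 50 nM. One group of 3 libraries received an siRNA against Ep300 (labelled as Ep300 silenced), and the other group of 3 received a control siRNA (labelled as WT). The groups share the cell line, and no further treatment such as an interferon or a Toll-like receptor ligand is named in the labels. How many siRNAs were used, and whether the libraries came from separate cultures, was not stated, and p-values therefore reflect the spread of these libraries alone, which may be technical.

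Total counts ran from 29993567 to 45377510 per library. Ep300, the silenced gene, was at 51.1, 59.0 and 54.9 CPM (TMM-scaled library sizes; CPM is a gene's count relative to the size of its library) after Ep300 siRNA and at 106.8, 115.3 and 118.4 CPM in controls. Of 9 macrophage markers, 8 entered the test and none passed (edgeR), and Mertk was near 0, with at most 14 counts in a library. Of the 8, 4 had an unadjusted p under 0.05, beside 22.2% of all genes tested. These were Adgre1 (log2 fold change −0.23), Csf1r (−0.24), Fcgr1 (−0.36) and Cd14 (0.25). Of 23 marker genes for other cells (lymphoid, dendritic, granulocyte, fibroblast, epithelial and endothelial), 4 entered the test and none passed (edgeR, with 1 at an unadjusted p under 0.05), and 5 had no count in any library. Their summed level was 5.42 to 6.89 CPM after Ep300 siRNA and 5.14 to 6.27 CPM in controls. Most of this sum was Zbtb46, at 5.15, 3.78 and 4.64 CPM after Ep300 siRNA and 3.22, 3.23 and 4.08 CPM in controls. Zbtb46 was also the marker with an unadjusted p under 0.05 (log2 fold change 0.37, edgeR adjusted p = 0.212). Ep300 siRNA replicate 1 had 5823 CPM of Gm42418, a transcript from a ribosomal RNA locus, against 1327 to 2174 CPM in the other libraries.

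Among the 9 genes, Irf2 rose to 1.22-fold of its control level, Irf5 fell to 0.837 and Irf2bp2 fell to 0.617, and the other 6 did not pass the test (edgeR, quasi-likelihood test, adjusted p under 0.05). All 9 were high enough to test. Over all 15741 genes tested, 6.78% were called, 2.76% as higher and 4.02% as lower. The median log2 fold change of the 9 genes was 0.04, beside −0.0038 over all genes. The 3 called members were also the only ones of the 9 whose libraries did not overlap between groups, a state seen for 27.5% of all genes tested. The same 3 were those with an unadjusted p under 0.05, beside 22.2% of all genes. Bulk RNA does not tell fewer cells with a transcript apart from less transcript per cell.

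**Figure D1:**
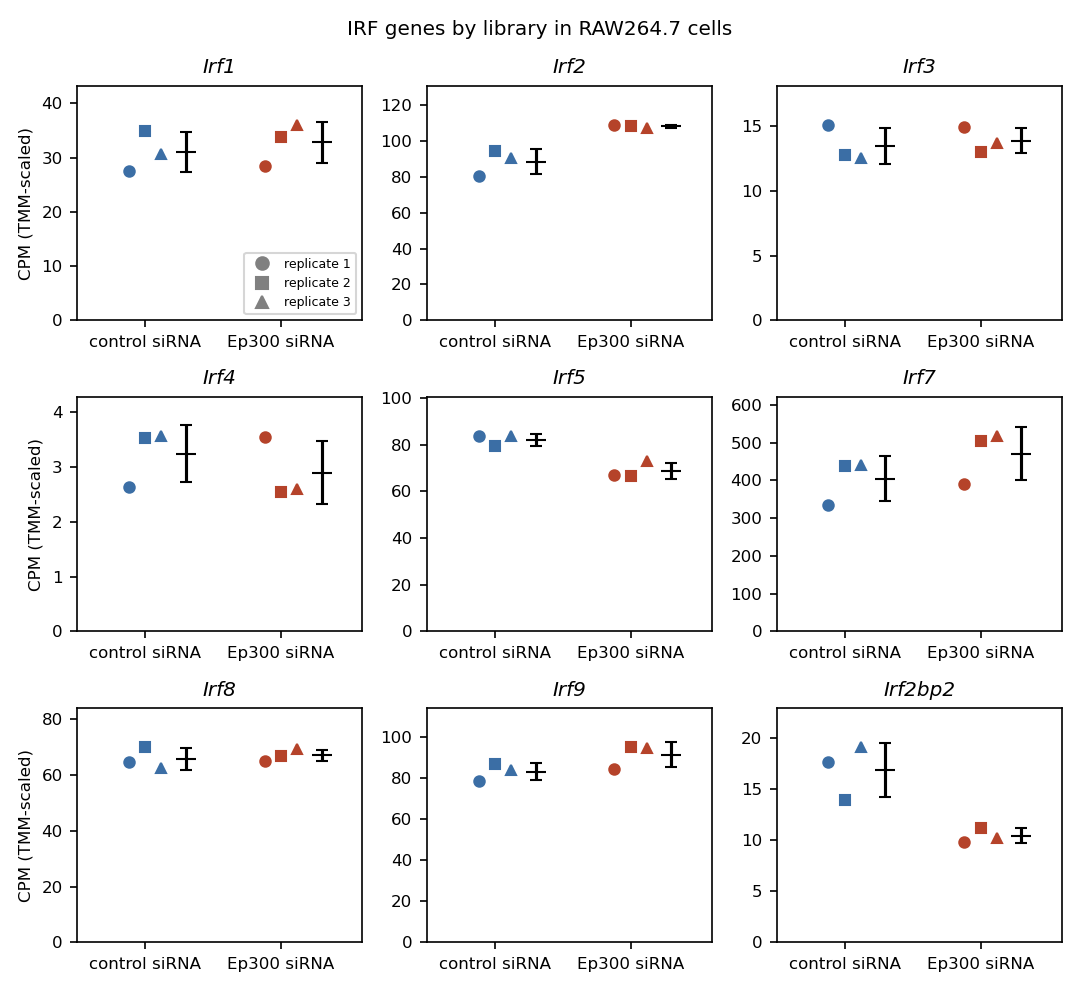
Level of each of the 9 genes in every library. The vertical axes give TMM-scaled CPM from 0, points are libraries (circle, square and triangle for replicates 1, 2 and 3), and bars give mean ± SD of 3 libraries; Irf2, Irf5 and Irf2bp2 are the panels in which the groups do not overlap.

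Irf2bp2 showed the largest change. It lies on GRCm38 chromosome 8 at 126588296 to 126593986 on the minus strand (ENSMUSG00000051495.7). Its level was 9.83, 11.2 and 10.2 CPM after Ep300 siRNA, against 17.6, 14.0 and 19.1 CPM in controls. Every Ep300 siRNA library lay below every control library, and control replicate 2 was the closest to them. This is a log2 fold change of −0.70 ± 0.12 (SE), with a 95% interval of −0.95 to −0.44 (edgeR adjusted p = 0.00536). Leaving out any single library kept the call, with values from −0.80 to −0.60. An antisense gene, Gm26759, shares 1039 exonic bases with Irf2bp2 and also fell. Its counts were 30, 27 and 34 after Ep300 siRNA and 76, 68 and 81 in controls (log2 fold change −1.08 ± 0.23, SE, edgeR adjusted p = 0.0171). Whether strand was used in counting was not stated, and reads of Irf2bp2 and Gm26759 over the shared bases cannot be told apart.

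Of the relatives of Irf2bp2, Irf2bpl passed the test and Irf2bp1 did not. Irf2bpl, which encodes a protein of the same zinc-finger family, fell to 0.747 of control. Its level was 22.4, 24.9 and 25.4 CPM after Ep300 siRNA and 33.2, 32.9 and 31.4 CPM in controls, with a wide gap between the groups (log2 fold change −0.42 ± 0.07, SE, edgeR adjusted p = 0.00552). Irf2bp1, the closest relative by name, was uneven between libraries of a group. It was at 21.9, 17.9 and 8.86 CPM after Ep300 siRNA and at 11.5, 7.84 and 14.6 CPM in controls, and the groups overlapped (log2 fold change 0.51 ± 0.28, SE, edgeR adjusted p = 0.319). Irf2bp1 ran from 0.25 without Ep300 siRNA replicate 1 to 0.81 without Ep300 siRNA replicate 3, where it passed as higher (adjusted p = 0.0481). It was at 0.32 without control replicate 2 (adjusted p = 0.61).

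Irf5, whose protein drives inflammatory cytokine genes after Toll-like receptor signals, was the IRF gene that fell. It lies on GRCm38 chromosome 6 at 29526625 to 29541871 on the plus strand (ENSMUSG00000029771.12). Levels were 67.3, 66.5 and 72.9 CPM after Ep300 siRNA and 83.8, 79.3 and 83.8 CPM in controls. The groups did not overlap, and Ep300 siRNA replicate 3 came nearest to the controls. On the log2 scale Irf5 differed by −0.26 ± 0.06 (SE), and the 95% interval ran from −0.39 to −0.12 (edgeR adjusted p = 0.0289). The call was kept in 1 of 6 fits with a library left out, that without Ep300 siRNA replicate 3. It was lost without any of the other 5 libraries, at adjusted p up to 0.113 and log2 fold changes from −0.27 to −0.23. Tnpo3, on the opposite strand, shares 411 exonic bases with Irf5 and had a log2 difference of −0.17 ± 0.06 (SE, edgeR adjusted p = 0.132, unadjusted p = 0.0193). All Ep300 siRNA libraries of Tnpo3 lay below all controls, as for 14.4% of all genes tested. With strand use in counting not stated, reads of Irf5 and Tnpo3 over the shared bases cannot be told apart.

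Irf2 was the IRF gene that rose. It lies on GRCm38 chromosome 8 at 46739732 to 46847458 on the plus strand (ENSMUSG00000031627.9). The 3 Ep300 siRNA libraries were close to each other at 108.7, 108.4 and 107.0 CPM, while the controls held 80.5, 94.0 and 90.4 CPM. All Ep300 siRNA libraries lay above all controls, and control replicate 1 was the lowest library. On the log2 scale Irf2 differed by 0.29 ± 0.07 (SE), and the 95% interval ran from 0.15 to 0.44 (edgeR adjusted p = 0.0235). Leaving out any Ep300 siRNA library, or control replicate 3, ended the call (adjusted p up to 0.0752), with log2 fold changes from 0.29 to 0.31 there.

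**Figure D2:**
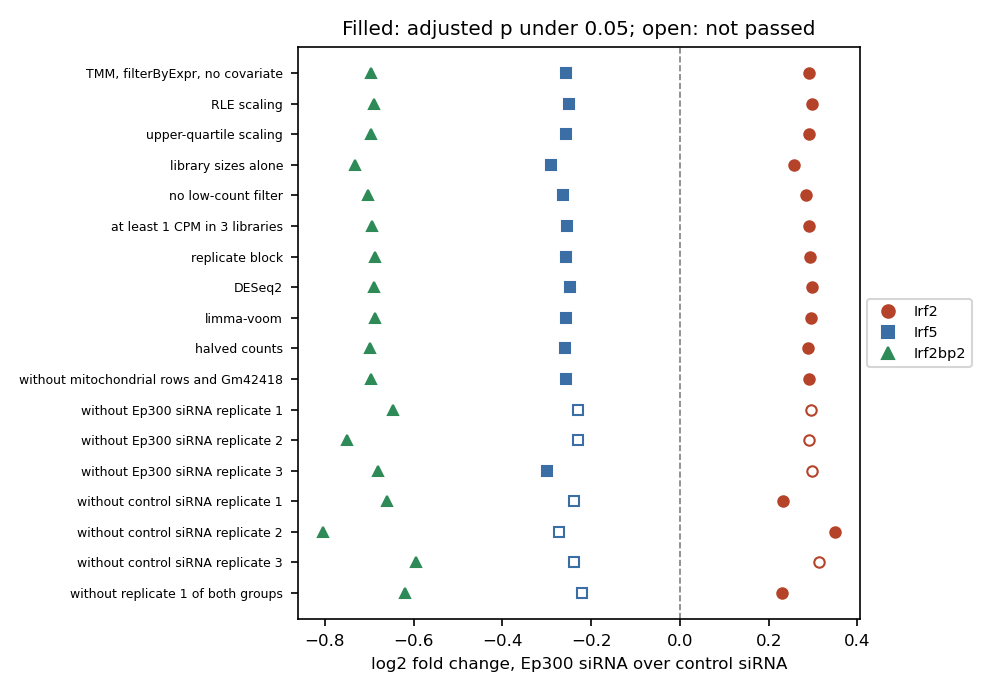
Log2 fold change of Irf2, Irf5 and Irf2bp2 (horizontal axis) under each analysis setting (vertical axis), with filled points for an adjusted p under 0.05. Irf2bp2 stays filled in every setting, and the open points of Irf2 and Irf5 are all fits with libraries left out.

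Irf1, the activator that IRF2 opposes at shared elements, did not pass. It was at 28.6, 33.9 and 36.0 CPM after Ep300 siRNA and 27.6, 34.9 and 30.6 CPM in controls. The ranges overlapped almost fully, and replicate 1 was the lowest library in each group. The fold change of Irf1 was 1.06 (95% interval 0.909 to 1.24, edgeR adjusted p = 0.685). The log2 ratio of Irf2 to Irf1 within a library was 1.93, 1.68 and 1.57 after Ep300 siRNA and 1.55, 1.43 and 1.56 in controls. The difference of 0.21 between group means gave an exact two-sided permutation p of 0.1, the smallest that 3 against 3 allows, and 0.167 after Benjamini-Hochberg adjustment over the 5 ratios computed. Ep300 siRNA replicate 3 lay just above the highest control. Irf2 by itself did not overlap between groups either, so the ratio is not a separate result.

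The promoters of Irf1, Irf2 and Irf8 held short motifs through which interferon and cytokine signals are known to act, and these are shown because Irf2, a called gene, held the most of them. RefSeq windows (GRCm38.p6) from 250 bases before to 50 bases after the start were found for all 9 genes, 12 windows in all. Searched on both strands were the ISRE core (GAAA, any 2 bases and GAAA again), the STAT element GAS TTCNNNGAA, the cAMP response element CRE TGACGTCA, the PU.1 motif GAGGAAG and the NF-kB consensus. The lines run 5′ to 3′ on the plus strand, which is that of each gene, and capitals mark the match:
Irf1 GAS, chr11:53769916-53769940: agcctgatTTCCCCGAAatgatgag
Irf1 NF-kB consensus, chr11:53769993-53770018: tccgggccGGGGAATCCCgctaagtg
Irf2 ISRE core, chr8:46739496-46739521: ggggaagtGAAAATGAAAttgacttt
Irf2 GAS, chr8:46739513-46739537: attgacttTTCCGAGAAatgatgaa
Irf2 NF-kB consensus, chr8:46739720-46739745: ggggtgggGGGGATTTCCagcctcgg
Irf8 GAS, chr8:120736179-120736203: aaagtgatTTCTCGGAAagagagcg
Irf8 GAS, chr8:120736197-120736221: gagagcgcTTCAGAGAAggcggatt

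Of all 32851 promoter windows in the table, 3.44% held the ISRE core, 8.3% GAS, 1.79% CRE, 13.6% the PU.1 motif and 4.51% the NF-kB consensus. Among the 3 called genes, Irf2 held an ISRE core, a GAS, a PU.1 motif and an NF-kB match, and Irf5 and Irf2bp2 held none of the 5 motifs in the window. Irf9 held PU.1 matches alone, and the windows of Irf3, Irf4 and Irf7 held no match. A match is a description of letters, and none of these positions was measured for binding here. The windows of Irf2bp2, Irf8 (its upstream start), Irf1 and Irf5 were rich in CpG, at 0.89 to 1.09 of the number their base composition gives, beside a median of 0.38 over all windows. Windows of Irf3 (0.71) and Irf2 (0.67) were also above that median, and Irf4 (0.4) and 1 Irf9 window (0.39) were close to it. The downstream Irf8 window (0.36) was close to it as well. The window of Irf7 was at 0.31, and the other Irf9 window was the lowest at 0.05.

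Irf8, the lineage factor of the monocyte and macrophage programme, was among the steadiest of the 9 genes. Its level was 65.0, 66.7 and 69.2 CPM after Ep300 siRNA and 64.6, 70.0 and 62.3 CPM in controls. The ranges overlapped, and the fold change of 1.02 had a 95% interval of 0.927 to 1.12 (edgeR adjusted p = 0.833). Irf4, which shares the partner PU.1 and marks other activation states, was the lowest of the 9 at 3.55, 2.54 and 2.59 CPM after Ep300 siRNA and 2.63, 3.51 and 3.56 CPM in controls. It rested on 88 to 130 counts per library, and its fold change of 0.893 had a wide 95% interval of 0.671 to 1.19 (edgeR adjusted p = 0.676).

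Irf3, which is made constitutively and is controlled mainly by phosphorylation, was at 14.9, 13.0 and 13.7 CPM after Ep300 siRNA and 15.1, 12.7 and 12.5 CPM in controls. The groups overlapped, with replicate 1 the highest library in each. Its fold change was 1.03 (95% interval 0.884 to 1.20, edgeR adjusted p = 0.86). Irf9, the DNA-binding subunit of ISGF3, was at 84.2, 94.99 and 94.6 CPM after Ep300 siRNA and 78.6, 87.0 and 83.7 CPM in controls. The groups overlapped, and its fold change of 1.10 (95% interval 0.991 to 1.22) did not pass (edgeR adjusted p = 0.269).

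Irf7, itself an interferon-stimulated gene and the amplifier of interferon-alpha production, was the most abundant IRF transcript. It was at 389.9, 504.6 and 517.4 CPM after Ep300 siRNA and 335.7, 438.8 and 440.2 CPM in controls. Replicate 1 was the lowest library of each group, and Ep300 siRNA replicate 1 lay within the control range. The fold change was 1.16 (95% interval 0.968 to 1.40), and Irf7 did not pass (edgeR adjusted p = 0.327). Without Ep300 siRNA replicate 1 the log2 fold change was 0.34 (adjusted p = 0.0978), against 0.22 with all libraries, and without control replicate 1 it was 0.10 (adjusted p = 0.636). With both replicate 1 libraries left out, a setting chosen after the data were seen, it was 0.22 (adjusted p = 0.052). The log2 ratio of Irf7 to Irf5 within a library was 2.53, 2.92 and 2.83 after Ep300 siRNA and 2.00, 2.47 and 2.39 in controls. These ratios did not overlap (exact permutation p = 0.1, adjusted 0.167 over 5 ratios). Irf5 by itself did not overlap between groups either, so the ratio is not a separate result.

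**Figure D3:**
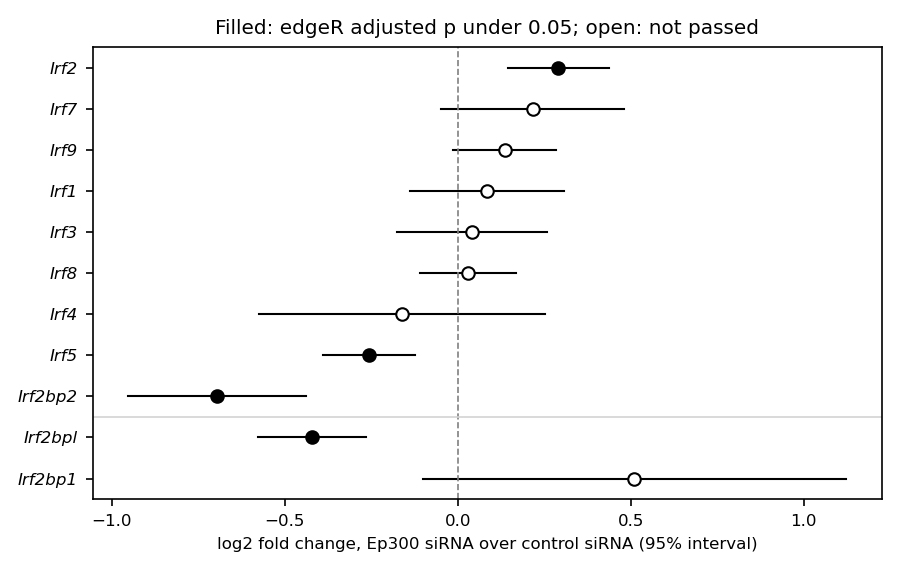
Log2 fold change, Ep300 siRNA over control siRNA (horizontal axis, with 95% interval), for the 9 genes and, below the line, the relatives Irf2bpl and Irf2bp1. Filled points passed edgeR's adjusted p of 0.05 (Irf2, Irf5, Irf2bp2 and Irf2bpl), and the other 7 intervals cross 0.

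Levels were compared between genes as CPM per kb of the annotated principal transcript (GENCODE M21). In controls Irf7 led at 211.3 ± 31.3 CPM per kb (SD, n = 3). Irf5 (36.7 ± 1.15), Irf2 (35.4 ± 2.79) and Irf9 (33.8 ± 1.73) followed. Control libraries of Irf2 overlapped those of Irf5 and of Irf9. Those of Irf5 lay above those of Irf9 by a narrow margin (lowest 35.39 against highest 35.38). Below them stood Irf8 (23.1 ± 1.39), Irf1 (14.5 ± 1.71), Irf3 (6.62 ± 0.695), Irf2bp2 (3.32 ± 0.519) and Irf4 (0.679 ± 0.109), each apart from its neighbours. After Ep300 siRNA the middle of the order was Irf2 (43.3 ± 0.353), Irf9 (37.1 ± 2.497) and Irf5 (30.7 ± 1.57), with no overlap between their libraries. On the length of all annotated exons together, the mean level over all libraries of Irf5 (26.0) stood above Irf9 (16.2) and Irf2 (13.3), so the order of these genes depends on the length used.

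Irf7 made up 60.7% ± 3.03 (SD, n = 3) of the summed per-kb level of the 8 IRF genes after Ep300 siRNA and 58.2% ± 3.05 in controls, a difference within the spread (exact permutation p = 0.5). The summed level itself was 403.1 ± 41.5 against 362.1 ± 36.2 CPM per kb (exact permutation p = 0.3).

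**Figure D4:**
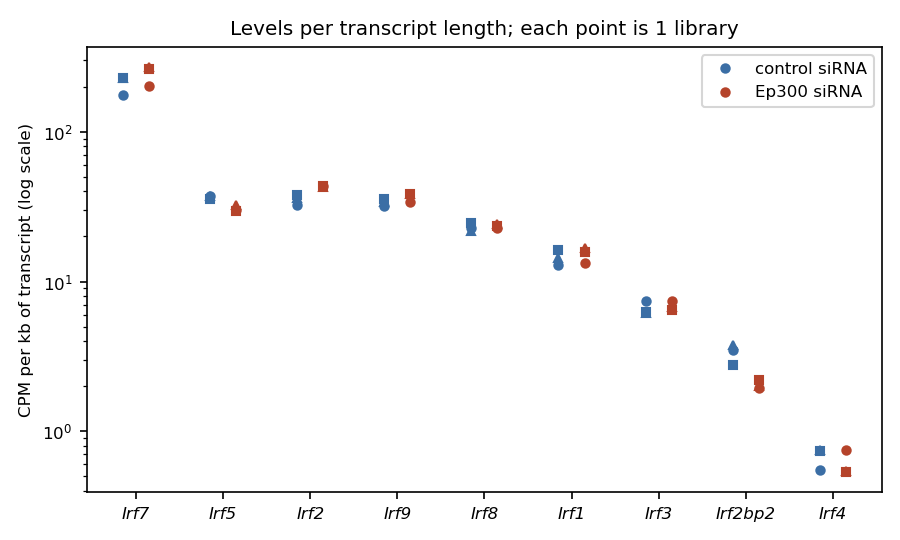
Level of the 9 genes as CPM per kb of transcript on a log axis, with each point a library (blue control siRNA, red Ep300 siRNA). Irf7 stands above all others and Irf4 below, while Irf5, Irf2 and Irf9 lie close to each other in controls.

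Of 26 sensors, adaptors and kinases that activate IRFs, 1 rose, 2 fell and 23 did not pass (median log2 fold change 0.0043). The called share was 11.5%, beside 6.78% of all genes. Ticam2, the adaptor that links TLR4 to IRF3, was at 14.6, 15.9 and 15.7 CPM after Ep300 siRNA and 20.8, 23.5 and 24.4 CPM in controls, with no overlap (log2 fold change −0.57 ± 0.08, SE, edgeR adjusted p = 0.00281). Tlr4 was the other gene that fell. Unc93b1, which carries nucleic-acid-sensing Toll-like receptors to endosomes upstream of IRF7 and IRF5, rose from 292.7, 294.8 and 284.4 CPM in controls to 353.9, 351.9 and 353.2 CPM (log2 fold change 0.28 ± 0.06, SE, edgeR adjusted p = 0.013). The call ended when replicate 3 of the Ep300 siRNA group or of the controls was left out, at adjusted p = 0.052 and 0.0545. With both replicate 1 libraries left out, 7 of the 26 passed, 4 higher and 3 lower, beside 1190 of all 15966 genes tested.

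Counts for interferon ligand genes, among them the type I interferons that IRF3 and IRF7 drive, were low. Multimapping settings were not stated, so reads that match more than 1 of these genes may not have been counted. Of 20 genes of type I, II and III interferons, 15 had no count in any library, and 1, Ifnb1, was high enough to test. A count of 0 in a single library allows an expected count of up to 3 there, and 0 in every library allows less. Ifnb1 was at 0.751, 1.67 and 1.84 CPM after Ep300 siRNA and 1.56, 2.06 and 1.31 CPM in controls, and did not pass. None passed by DESeq2 or limma-voom, and none had an unadjusted edgeR p under 0.05.

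Of 13 genes of interferon receptor signalling, the partners of IRF9 among them, none passed by edgeR (median log2 fold change 0.09). At an unadjusted edgeR p under 0.05 there were 3 of the 13, beside 22.2% of all genes. DESeq2 called 1 and limma-voom 0. Stat2, which brings the activation domain to ISGF3, was at 128.9, 196.2 and 185.4 CPM after Ep300 siRNA and 96.3, 125.7 and 132.6 CPM in controls. Ep300 siRNA replicate 1 lay within the control range (log2 fold change 0.53 ± 0.15, SE, edgeR adjusted p = 0.0552). Without that library Stat2 was at 0.70 (adjusted p = 0.00443), and without control replicate 1 at 0.40 (adjusted p = 0.115). With both replicate 1 libraries left out it was 0.57 (adjusted p = 7.0e-05).

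Interferon-stimulated targets of ISGF3, IRF3 and IRF7 had their lowest levels in replicate 1 of each group. Of 33 genes, none rose, 1 fell (3.03%, beside 6.78% of all genes) and 32 did not pass. The log2 fold change was above 0 for 24 of the 33 (median 0.09). The gene that fell was Ccl5, a chemokine, at 1.501, 2.97 and 3.05 CPM after Ep300 siRNA and 4.41, 6.91 and 7.28 CPM in controls, with a log2 fold change of −1.28 ± 0.25 (SE, edgeR adjusted p = 0.0118), a call lost without control replicate 2 (adjusted p = 0.0599). The summed level of the 33 genes was 3164, 5629 and 5266 CPM after Ep300 siRNA and 3489, 4827 and 4789 CPM in controls, lowest in replicate 1 of each group. For all 33 genes replicate 1 was the lowest library in each group, as it was for 14.3% of all genes tested. Irf1, Irf7 and Irf9 showed the same order, and Irf3 the reverse. Without Ep300 siRNA replicate 1, 11 of the 33 passed, 10 of them higher, beside 698 of all 16237 genes tested, 303 higher. Without both replicate 1 libraries 13 of the 33 passed, 11 of them higher, beside 1190 of all 15966 genes, 533 higher. The high Gm42418 level stood in Ep300 siRNA replicate 1 and not in control replicate 1 (1529 CPM), and the part of RNA quality in this order was not tested.

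**Figure D5:**
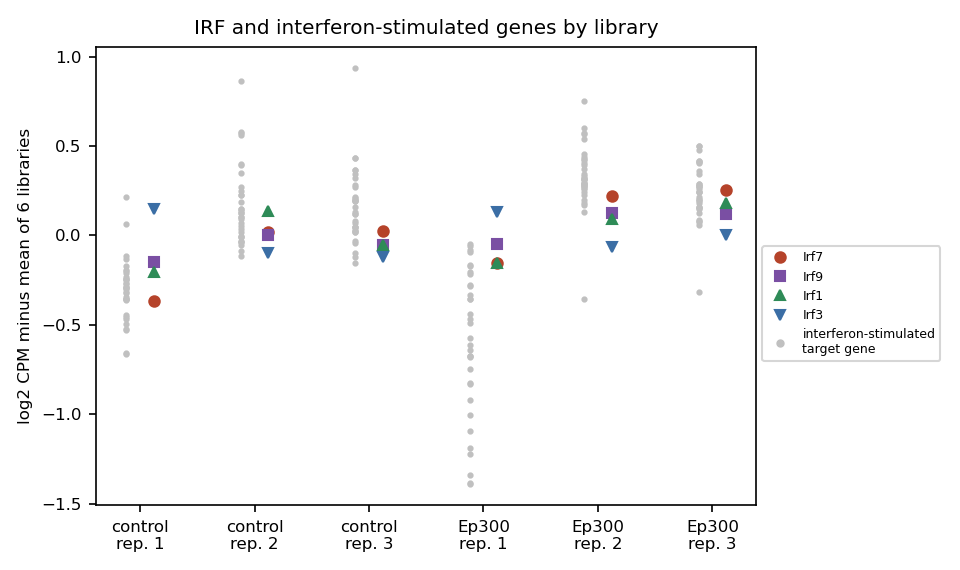
Log2 CPM minus the mean of 6 libraries (vertical axis) in each library (horizontal axis). Grey points are 33 interferon-stimulated genes and coloured symbols Irf7, Irf9, Irf1 and Irf3; replicate 1 of each group is the lowest of its group for the grey points, Irf7, Irf9 and Irf1, and the highest for Irf3.

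Of 21 genes linked to IRF1, 17 were tested and none passed edgeR's adjusted p, and 0 passed by DESeq2 or limma-voom (median log2 fold change 0.10). At an unadjusted edgeR p under 0.05 there were 2 of the 17, beside 22.2% of all genes. The smallest p was that of Casp1, the inflammasome protease, at 110.0, 124.3 and 119.5 CPM after Ep300 siRNA and 99.0, 109.3 and 103.4 CPM in controls (edgeR adjusted p = 0.125). With both replicate 1 libraries left out, 3 of the 17 passed, all higher, beside 1190 of all 15966 genes tested.

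Of 18 genes linked to IRF8 with PU.1, 17 were tested, 1 rose and 2 fell (median log2 fold change 0.03). The called share was 17.6%, beside 6.78% of all genes, and 8 of the 17 had an unadjusted p under 0.05, beside 22.2%. Ctsc, the lysosomal protease cathepsin C, was at 30.2, 28.4 and 29.3 CPM after Ep300 siRNA and 23.2, 22.9 and 22.8 CPM in controls (log2 fold change 0.35 ± 0.07, SE, edgeR adjusted p = 0.00863). Cd180, a Toll-like receptor homologue, was at 65.9, 71.3 and 70.9 CPM and 87.1, 100.9 and 95.6 CPM in the same order (log2 fold change −0.45 ± 0.07, SE, edgeR adjusted p = 0.0034). Blnk, a signalling adaptor, was the other gene that fell. Irf8 itself did not pass.

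Of 21 partners and regulators of IRFs, 19 were tested, none rose and 1, Irf2bpl, fell (median log2 fold change 0.07). The called share was 5.26%, beside 6.78% of all genes. Beside Irf2bp2, the genes whose levels over the 6 libraries were most like it, among 9235 named genes with a mean of at least 5 CPM, were Parn (Pearson r = 0.99), Slc25a51 (0.985), Pds5b (0.982), Ifitm2 (0.981) and Sfswap (0.979). Of these, Slc25a51 passed the test (log2 fold change −0.27 ± 0.07, SE, edgeR adjusted p = 0.0499). For Irf7, taken up after its values were seen, they included Sdc3 (0.998), Mxd1 (0.995), Ddx58 (0.995) and Tap1 (0.989), and none of these passed. The 6 libraries share the group difference and the low replicate 1 values, so these r are a description.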

How the data were processed

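The authors deposited raw read counts per gene symbol, 1 column per library, matched to samples by title. Tools in the submitters' processing notes are STAR 2.5.3a, edgeR 3.12.1, fastp 0.23.4 and featureCounts, with the build GRCm38; annotation, strand and multimapping settings were not stated. Among counts of 1 to 4, 79.8% to 80.9% were even, so halved counts were an alternative. Libraries of a group differed by more than sampling noise (chi-square over its degrees of freedom, 8.43 to 29.6).

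Here edgeR 4.0.16 (R 4.3.3) was run with filterByExpr by group, TMM and the quasi-likelihood test without covariate, with Benjamini-Hochberg adjustment over 15741 genes and a threshold of 0.05. The step was tested on simulated data. Alternatives were other scalings and filters, a replicate block, DESeq2 1.42.0, limma-voom (limma 3.58.1), halved counts, leaving out mitochondrial rows and Gm42418, and leaving out each library. Positions and lengths came from GENCODE M21 and promoters from RefSeq; figures used matplotlib 3.10.9. Named genes are the 9 members, Ep300, Irf2bp1, Irf2bpl and, per list, the lowest p among higher and among lower calls, or the lowest p where none passed. For the member with the lowest p and that with the largest variance (Irf2bp2 is both), the 5 genes with the highest Pearson r of log2 CPM (prior count 2) are named, leaving out predicted genes. Some genes that this rule names are not reported here. Tlr4, Blnk, Zbtb46, Gm26759 and Tnpo3 were named after their values were seen. The members and lists were chosen with earlier results of these data known. Depth covers counting error only, since PCR reads are not independent molecules.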

Additional observations from a re-analysis of the deposited data

How the results depend on the processing

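Irf2bp2 and Irf2bpl kept direction and call in every setting run. Irf2 and Irf5 lost their calls only in fits with libraries left out, and Irf5 also without both replicate 1 libraries (log2 fold change −0.22, adjusted p = 0.0694). Leaving out 1 library gave 1 or 2 called among the 9 genes, against 3 with all (1 without Ep300 siRNA replicate 1 or 2 or control replicate 3), and 490 to 1054 of all genes. With library sizes alone, the 1104 called genes split into 316 higher and 788 lower, against 435 and 633 with TMM. Without a low-count filter 1721 genes were called, and Irf7 (0.21, adjusted p = 0.0403), Irf2bp1 (0.50, adjusted p = 0.000128) and Stat2 (0.52, adjusted p = 8.73e-11) passed. That setting called 6 IRF activation genes, 3 of receptor signalling, 12 ISGF3 and IRF3/IRF7 targets, 6 IRF1 targets, 6 IRF8 and PU.1 targets and 6 partners. DESeq2 called 1367 of 12638 genes in all. Within the lists it called 1 of receptor signalling, 3 ISGF3 and IRF3/IRF7 targets, 6 IRF8 and PU.1 targets and 2 partners. Library sizes alone gave 2 partners. Without both replicate 1 libraries, 1190 of 15966 genes were called in all. The list counts there were 7 for activation, 2 for receptor signalling, 13 for ISGF3 and IRF3/IRF7 targets, 3 for IRF1 targets and 3 for partners. Over the fits without 1 library they ran from 2 to 5, 0 to 2, 0 to 11, 0 to 2 and 1 to 4 in the same order, and 2 to 4 for IRF8 and PU.1 targets. The causes were not tested.

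With the replicate block, 1357 genes were called, with the same count of 3 among the 9 genes, 6 for activation, 2 for receptor signalling, 6 for ISGF3 and IRF3/IRF7 targets, 3 for IRF1 targets and 2 for partners. Over all genes tested, same-numbered libraries correlated at 0.087, 0.020 and −0.047 in their deviations from group means. These values do not settle pairing for single genes. Irf7 deviated by −0.26, 0.11 and 0.15 (log2) in Ep300 siRNA replicates 1 to 3, and by −0.26, 0.13 and 0.13 in controls. With the block Irf7 was at 0.22 (edgeR adjusted p = 0.0511). The labels name no pairs, and the main fit used none. With the block Stat2 passed (0.52, adjusted p = 0.000752).

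Values near 0 changed sign. With 1 library left out, Irf3 ran up to 0.14, Irf8 up to 0.088 and Ifnb1 down to −0.41. Irf3 was at −0.0058 without Ep300 siRNA replicate 1 and −0.0034 without control replicate 3. Irf8 was at −0.0031 with library sizes alone and −0.0015 without control replicate 3. Ifnb1, at 74 counts or fewer, was at 0.11 without Ep300 siRNA replicate 1, 0.0098 without control replicate 2 and 0.063 without both replicate 1 libraries; depth limits this gene and Irf4.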
